A study of Mus musculus with 2 samples.

Results

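Galectin-3 and galectin-1 (Lgals3, Lgals1) and 8 further genes of phagocytes at sites of damage (Trem2, Tyrobp, Spp1, Gpnmb, Cst7, Itgax, Cd9 and Igf1) were followed across cell classes of the infarcted mouse brain. These 10 genes were taken by symbol from 31253 features, all 10 were found, and none was removed by a filter on low values. They were proposed for the way they differed between microglia and infiltrating macrophages in these same cells, so that difference is given below as a description, without a test. The tissue was infarcted brain on day 3 of reperfusion stroke, produced by closing the middle cerebral artery for a time (tMCAO), dissociated with collagenase and profiled on the BD Rhapsody single-cell platform. The design held 1 library from flox mice, which the design text calls WT, and 1 library from Hilpda conditional knockout (cKO) mice. Hilpda encodes a lipid droplet protein that inhibits triglyceride breakdown. The labels give no Cre driver, deleted exon, age, sex or number of animals, so the cell type in which Hilpda was deleted is not known here.

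Microglia are the resident macrophages of the brain, and monocytes enter the infarct from blood and become macrophages there. Around debris, both can take up a damage-associated state, in which transcripts for lipid handling, lysosomes and secreted factors are raised. In the signalling part of this set, Trem2 is a cell-surface receptor for lipids and apoptotic cells, and Tyrobp (DAP12) is the adaptor that carries its signal. Lgals3 and Lgals1 are lectins that bind β-galactosides, and galectin-3 also gathers at damaged lysosomes. Spp1 (osteopontin) and Igf1 (insulin-like growth factor 1) are secreted. Gpnmb is a transmembrane glycoprotein of lysosome-rich phagocytes, Cst7 (cystatin F) inhibits lysosomal cysteine proteases, Itgax is the integrin chain CD11c, and Cd9 is a tetraspanin of the cell surface.

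All 10 are protein-coding genes in GENCODE vM21, on the GRCm38 build that the submitters' processing notes call mm10. Lgals3 lies at chr14:47367751-47386160, Lgals1 at chr15:78926725-78930465, Trem2 at chr17:48346401-48354147 and Tyrobp at chr7:30413760-30417585. Spp1 lies at chr5:104435118-104441050 and Igf1 at chr10:87858265-87937042. Gpnmb lies at chr6:49036546-49070929, Cst7 at chr2:150570415-150578944, Itgax at chr7:128129547-128150657 and Cd9 at chr6:125460266-125494791, the only one of the 10 on the minus strand.

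RefSeq start sites with promoter sequence (GRCm38.p6) were matched by symbol for 8 of the 10 genes. In the window of 300 bases around each start, 3 motifs were searched on both strands: the AP-1-type TGANTCA, the PU.1-type GAGGAAGT and the E-box CACGTG. AP-1 factors respond to stress and activation signals, PU.1 is the master factor of myeloid cells, and the E-box is read by lysosomal MiT factors among others. The AP-1-type letters stood in 5 of the 8 genes, which have 9 starts, and in 7.81% of 32851 RefSeq promoters of the same length. N stands for any base, and it was C in Gpnmb, G in Itgax, A in Trem2 and Igf1, and T in Cst7. The PU.1-type letters stood in 1 of the 8, Spp1, and in 3.20% of all promoters. CACGTG was in 0 of the 8 and in 7.15% of all promoters. The motifs do not overlap one another in these windows. The stretches of 150 bases below end 25 bases past the start, lie on the plus strand of GRCm38.p6, and are shown because they hold every match. Capitals mark the AP-1-type letters, or in Spp1 the PU.1-type letters.
Trem2, chr17:48346276-48346425: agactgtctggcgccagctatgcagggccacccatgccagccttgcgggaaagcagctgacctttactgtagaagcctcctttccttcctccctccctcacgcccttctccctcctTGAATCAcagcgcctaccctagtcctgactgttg
Gpnmb, chr6:49036393-49036542: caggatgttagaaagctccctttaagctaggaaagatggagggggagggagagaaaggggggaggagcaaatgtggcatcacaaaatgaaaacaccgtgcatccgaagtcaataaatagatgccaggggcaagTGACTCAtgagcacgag
Cst7, chr2:150570290-150570439: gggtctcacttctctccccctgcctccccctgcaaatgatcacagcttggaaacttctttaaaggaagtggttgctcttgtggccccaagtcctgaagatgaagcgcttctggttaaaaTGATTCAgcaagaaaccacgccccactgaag
Itgax, chr7:128129425-128129574: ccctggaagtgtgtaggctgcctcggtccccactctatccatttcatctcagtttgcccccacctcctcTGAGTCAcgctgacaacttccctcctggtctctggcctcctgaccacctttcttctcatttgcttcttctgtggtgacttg
Igf1, chr10:87860986-87861135: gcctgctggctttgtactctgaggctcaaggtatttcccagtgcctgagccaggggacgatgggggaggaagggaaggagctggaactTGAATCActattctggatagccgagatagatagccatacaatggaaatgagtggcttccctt
Spp1, first start, chr5:104434986-104435135: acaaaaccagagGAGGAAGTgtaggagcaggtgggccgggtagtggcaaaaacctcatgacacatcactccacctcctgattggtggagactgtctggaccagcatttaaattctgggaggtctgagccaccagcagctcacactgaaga
The 5 AP-1-type matches sit close to the start, between position -56 in Itgax and position 8 in Gpnmb, counted from the start at 0. Genes with the match went in both directions below: Gpnmb and Itgax were higher in macrophages, and Cst7 and Igf1 in microglia. No match in Lgals3, Cd9 or the second start of Spp1 says only that these letters are not in those windows.

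After filtering, 8061 flox cells and 6983 cKO cells were kept, with medians of 6993 and 8747 UMIs (unique transcript molecules) per cell. The libraries shared 56 cell barcodes, and without the cells that carry them no ratio or count of these genes changed its side of the size rule set out below. Clusters, made without the 10 genes among the clustering genes, were named from fixed markers and are written as "-like". Microglia-like cells numbered 2119 in flox and 1383 in cKO, with medians of 9129 and 14638 UMIs. Macrophage-like cells, short here for infiltrating monocyte or macrophage-like, numbered 3626 and 3073, with medians of 7956 and 10067 UMIs. The class labels were checked on markers that had also named the clusters: Sall1, which defines microglia, stood at 171 and 121 CPM (UMIs scaled to the total of the class) in flox and cKO microglia-like cells and at 1.42 and 0.50 CPM in macrophage-like cells. Ccr2, the monocyte chemokine receptor, went the other way, at 4.77 and 3.11 CPM in microglia-like and 308 and 234 CPM in macrophage-like cells. Not every marker separated the classes as widely. Fn1, on the infiltrating list, had 621 and 538 CPM in microglia-like and 827 and 831 CPM in macrophage-like cells. Ccr2 was also uneven within macrophage-like cells, with 68.4 and 30.9 CPM in cluster 1, described below.

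The targeted gene did not follow the labels in every class. Hilpda stood at 471.5 CPM in the library labelled flox and 267 CPM in the library labelled cKO in macrophage-like cells (log2 ratio -0.82, -0.86 to -0.78). In microglia-like cells it went the other way, at 101.5 and 226.5 CPM (1.16, 1.08 to 1.23), higher in the library labelled cKO. Neutrophil-like cells were lower there (-2.56, on 49 and 14 UMIs). Border-associated macrophage-like (0.96), dendritic cell-like (0.56), pericyte or smooth muscle cell-like (0.79), astrocyte-like (1.34) and neuroblast-like cells (3.62, on 1 and 19 UMIs) were higher, with intervals above 0. In endothelial cell-like, oligodendrocyte-like and choroid plexus epithelial cell-like cells the interval included 0. Reads from the 3′ end can lie outside a deleted part, and the labels do not name the deleted part, so these levels check the labels only in part. Below, flox and cKO always mean the libraries that carry those labels.

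With 1 library per group, genotype and library cannot be told apart and no test between groups was possible. Every interval below is a 95% interval of counting error alone. A ratio was past the size rule when it reached 2-fold, its interval excluded equal levels, and the higher sum held 30 UMIs and 100 CPM or more. Values are given flox first, then cKO, unless said otherwise, and nothing was replicated. Levels are compared for 1 gene across cells and never between genes.

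Between the myeloid classes the 10 genes split into 2 patterns. Gpnmb, Itgax, Lgals1 and Lgals3 were higher in macrophage-like cells in both libraries, while Cst7, Igf1, Cd9, Spp1 and Trem2 were higher in microglia-like cells and Tyrobp was close to even. In flox, 4 of the 10 genes were past the size rule as higher in macrophage-like cells and 3 as lower, where 2.84% of 13112 features measured were past it in either direction (1.46% higher and 1.39% lower). In cKO, 1 was past it as higher and 4 as lower, against a background of 2.56% of 12952 features (1.29% higher and 1.27% lower). Nothing is read from these counts, since the genes were chosen on this contrast. The median log2 ratio of the 10 genes, macrophage-like minus microglia-like, was -0.21 in flox and -0.23 in cKO, and that of all features measured was -0.16 and -0.10.

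**Figure D1:**
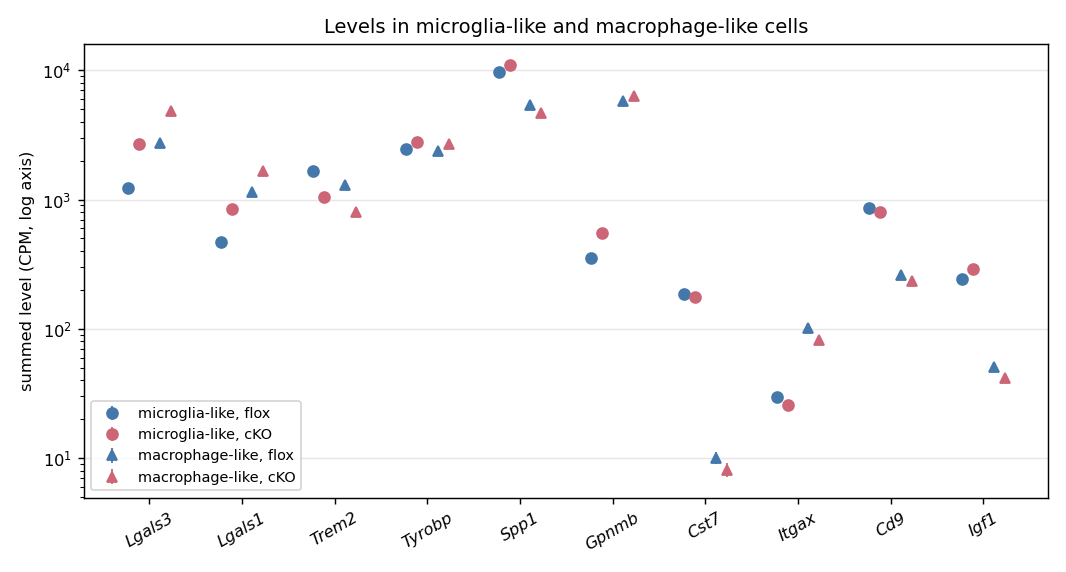
Summed level of each gene in CPM (vertical log axis) in microglia-like (circles) and macrophage-like (triangles) cells of the flox (blue) and cKO (red) library, with 95% counting intervals that are mostly smaller than the symbols. Gpnmb is more than 10-fold higher in macrophage-like cells, Cst7 at 177 CPM or more in microglia-like and 10.1 CPM or less in macrophage-like cells, and the red symbols of Lgals3 and Lgals1 stand above the blue ones in both classes.

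Lgals3, the galectin-3 gene, stood at 1226 and 2695 CPM in microglia-like cells, and at 2717 and 4855 CPM in macrophage-like cells. The macrophage-like level was 2.22-fold that of microglia-like cells in flox (log2 ratio 1.15, 1.13 to 1.17), and the cKO ratio was 0.85 (0.84 to 0.86). The intervals of the cKO microglia-like and the flox macrophage-like level overlapped. Lgals1, the galectin-1 gene, had 471 and 844 CPM in microglia-like and 1144 and 1662 CPM in macrophage-like cells, 2.43-fold apart in flox (1.28, 1.25 to 1.31) and 1.97-fold in cKO (0.98). For both galectins all 4 sums were ordered alike, with flox microglia-like cells lowest and cKO macrophage-like cells highest. The flox ratio of Lgals3 was 0.90, under 2-fold, without the microglia-like cluster 4 described below.

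The share of cells with a galectin UMI followed the same order once every cell was thinned to 2000 UMIs, with shallower cells left out (82 flox and 26 cKO microglia-like cells, and 91 and 78 macrophage-like cells). For Lgals3 it was 44.2% (42.0% to 46.4%) and 64.2% (61.6% to 66.7%) of microglia-like cells, flox first, and 93.2% and 97.8% of macrophage-like cells. Before thinning these shares were 63.1%, 80.3%, 97.7% and 98.99%. For Lgals1 the thinned shares were 36.4% and 55.5% in microglia-like and 81.1% and 89.95% in macrophage-like cells. For comparison outside the myeloid classes, oligodendrocyte-like cells, with medians of 4550 and 4950 UMIs, gave Lgals3 shares of 12.4% and 21.9%. Their Lgals1 shares were 19.6% and 21.9%. Endothelial cell-like cells gave 12.8% and 16.0% for Lgals3, and 10.7% and 12.3% for Lgals1. The part of free RNA in these shares was not tested. Lgals3 UMIs were unevenly spread among microglia-like cells, where the median thinned flox cell had 0 and the highest had 27, while the median macrophage-like flox cell had 4.

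The other galectins did not divide the classes in this way. Of 9 listed genes (galectin family and the galectin-3-binding protein Lgals3bp), 8 were in the files, 5 were measured (median ratios -0.16 and -0.09) and 0 were past the size rule in either library. Lgals3bp had 592 and 642 CPM in microglia-like and 647 and 644 CPM in macrophage-like cells. Lgals9, a galectin with paired sugar-binding domains, had 385 and 346 CPM in microglia-like and 346 and 317 CPM in macrophage-like cells.

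Trem2 had 1651 and 1053 CPM in microglia-like cells, and 1285 and 794 CPM in macrophage-like cells. Its class ratio was alike in both libraries, at -0.36 (-0.38 to -0.34) and -0.41 (-0.43 to -0.38), under 2-fold. The thinned share of Trem2-positive cells was 94.7% and 85.2% in microglia-like and 86.5% and 73.7% in macrophage-like cells, against 8.40% and 9.16% in oligodendrocyte-like cells. Tyrobp, its adaptor, had 2467 and 2785 CPM in microglia-like and 2357 and 2695 CPM in macrophage-like cells. The class ratio of Tyrobp was -0.07 and -0.05, and its sign turned under TMM scaling, to 0.09 in both libraries. TMM moves every ratio of this contrast by 0.15 in flox and 0.14 in cKO, and none of the other 9 genes changed sign with it. Between 97.6% and 99.04% of the thinned cells held a Tyrobp UMI in the 4 groups of cells.

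Around this receptor, 13 of 13 listed signalling and shedding genes were measured, and 2 were past the size rule in both libraries, both higher in macrophage-like cells. They were Apoe, a lipid carrier that binds Trem2, at 2563 and 2834 CPM in microglia-like and 15746 and 13598 CPM in macrophage-like cells, and Ms4a7, at 70.9 and 85.0 CPM and 704 and 609 CPM. Adam17, which sheds the Trem2 ectodomain, was even at 265 CPM in both classes in flox and at 313 and 323 CPM in cKO. The median log2 ratio of this list was 0.16 in flox and 0.10 in cKO.

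Among the secreted factors, Spp1 had 9735 and 10999 CPM in microglia-like cells, and 5362 and 4700 CPM in macrophage-like cells. Its class ratio was -0.86 (-0.87 to -0.85) in flox and -1.23 (-1.24 to -1.22) in cKO, so only the cKO ratio was past the size rule. Under 8 of 13 alternatives the flox ratio stayed short of the rule, and it was weakest with equal weight per cell, at -0.64. Without cluster 1 or cluster 4, described below, the flox ratio was past it, at -1.04 and -1.12. So it was with the per-cell marker gate (-1.08), with the 10 genes kept for clustering (-1.16) and at resolution 2 (-1.33). The order of the shares was the reverse. After thinning, 63.0% and 73.3% of microglia-like cells held a Spp1 UMI, against 85.2% and 81.4% of macrophage-like cells. In microglia-like flox cells the 90th percentile was 47 thinned UMIs and the median 2, while in macrophage-like flox cells these were 21 and 6. The 10% of thinned microglia-like cells with most Spp1 held 45.6% of its thinned UMIs in flox and 35.7% in cKO. In macrophage-like cells the same measure was 34.1% and 35.5%. Microglia-like cells thus had more Spp1 in sum, with a smaller share of positive cells.

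Of 8 osteopontin receptor genes, all 8 measured (median ratios 0.24 and 0.09), 2 were past the size rule in flox and 1 in cKO, all higher in macrophage-like cells. Cd44 had 61.3 and 75.5 CPM in microglia-like and 455 and 465 CPM in macrophage-like cells. Itga4, named after its values were seen, had 8.36 CPM in microglia-like and 104 CPM in macrophage-like flox cells. Itgb1 and Itgb5, chains of the integrin receptors, were under 2-fold, at 409 and 337 CPM and at 724 and 422 CPM in flox microglia-like and macrophage-like cells.

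Igf1 had 243 and 288 CPM in microglia-like and 50.5 and 41.9 CPM in macrophage-like cells, with ratios of -2.27 (-2.35 to -2.19) and -2.78 (-2.87 to -2.70). With the per-cell marker gate these ratios were -3.05 and -3.51, and at resolution 2 the flox ratio was -2.89. After thinning, 20.8% and 28.6% of microglia-like cells and 6.45% and 5.71% of macrophage-like cells were Igf1-positive, above the 2.0% and 1.20% of oligodendrocyte-like cells. Border-associated macrophage-like cells, which line vessels and meninges, held more, at 429 and 427 CPM, with thinned shares of 55.3% and 47.9%. In the IGF system, 10 of 12 listed genes were measured (medians -0.11 and 0.18) and 1 was past the size rule in both libraries. It was Irs2, an adaptor of the insulin and IGF1 receptors, which was higher in macrophage-like cells at 187 against 57.3 CPM in flox and 124 against 27.9 CPM in cKO. Igf1r, the receptor, stood at 32.1 and 36.4 CPM in microglia-like and 15.6 and 21.01 CPM in macrophage-like cells, under the CPM minimum of the rule.

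Gpnmb had the highest ratio towards macrophages of the 10 genes. It stood at 355 and 555 CPM in microglia-like cells and at 5738 and 6333 CPM in macrophage-like cells, 16.2-fold apart in flox (4.01, 3.98 to 4.05) and 11.4-fold in cKO (3.51, 3.49 to 3.54). Its thinned share was 83.3% and 83.0% of macrophage-like cells. In microglia-like cells the share of 23.2% (21.4% to 25.1%) and 26.8% (24.5% to 29.3%) can be set beside that of oligodendrocyte-like cells, 20% (15.2% to 25.5%) and 17.5% (13.04% to 22.8%), where the flox intervals overlap. Endothelial cell-like cells, with medians of 3968 and 5640 UMIs, gave 15.4% (12.1% to 19.3%) and 13.8% (10.6% to 17.5%), which the microglia-like intervals do not reach. After thinning, the 10% of microglia-like cells with most Gpnmb held 75.9% of its thinned UMIs in flox and 76.3% in cKO, and the highest thinned flox cell had 42. The ratio includes a macrophage-like cluster led by Gpnmb itself, cluster 1, and without it the flox ratio was 3.66. When cells were gated one by one on markers the flox ratio was 3.12, and at clustering resolution 2 the cKO ratio was 2.85, both still past the size rule. Of the MiT factors and Gpnmb partners, 6 of 6 were measured (medians 0.64 and 0.59), and Cd44, given above, was the only one past the size rule as higher in macrophage-like cells in either library. Mitf, which drives Gpnmb in pigment cells, had 27.6 and 26.0 CPM in microglia-like and 46.6 and 41.7 CPM in macrophage-like cells, under the CPM minimum. Sdc4, a syndecan to which Gpnmb binds, was higher in microglia-like cells, at 688 against 372 CPM in flox and 1004 against 489 CPM in cKO, past the size rule in cKO.

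Cst7 had the opposite pattern. It stood at 185 and 177 CPM in microglia-like cells and at 10.1 and 8.10 CPM in macrophage-like cells, with ratios of the sums of -4.20 and -4.45. The thinned share was 24.4% and 26.0% of microglia-like cells. In macrophage-like cells it was 1.64% and 1.503%, beside 0.80% and 1.59% in oligodendrocyte-like cells, and 0% and 0.246% in endothelial cell-like cells (0 of 421 in flox, which allows up to 0.713%). The macrophage-like level is thus not separated from that of oligodendrocyte-like cells, no expression is read from it, and no fold is given against it. Of 5 cathepsins and legumain that cystatin F inhibits or that process it, all 5 measured (medians 0.25 and -0.12), Ctsl was past the size rule as higher in microglia-like cells in both libraries, at 3360 and 3732 CPM against 1064 and 1068 CPM. Ctss was past it as higher in macrophage-like cells in cKO, at 4278 CPM in microglia-like and 9918 CPM in macrophage-like cKO cells. Ctsc, which activates serine proteases of granules, had 1265 and 1323 CPM in microglia-like and 1507 and 1219 CPM in macrophage-like cells.

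On the cell surface, Itgax was low in both classes, with 29.8 and 26.0 CPM in microglia-like and 102 and 82.6 CPM in macrophage-like cells. The ratio was 1.77 (1.65 to 1.90) in flox and 1.67 (1.54 to 1.81) in cKO. Only the flox sum reached the minimum of 100 CPM, and that call was lost with thinned cells and without cluster 1. Dendritic cell-like cells, for which CD11c is a classical marker, had far more Itgax, at 792 and 714 CPM, and their thinned share was 65.5% and 65.0%. In macrophage-like cells the share was 14.4% and 12.5%, and in microglia-like cells 5.84% and 4.94%, beside 0.40% and 0% in oligodendrocyte-like cells (0 of 251 cells, which allows up to 1.20%). Of the other β2 integrin chains, 3 of 4 were measured (medians 0.05 and 0.30) and 0 were past the size rule. Itgam (CD11b) had 1274 and 896 CPM in microglia-like and 847 and 733 CPM in macrophage-like cells.

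Cd9 had 863 and 797 CPM in microglia-like and 262 and 235 CPM in macrophage-like cells, a ratio of -1.72 (-1.76 to -1.68) and -1.76 (-1.80 to -1.72). Oligodendrocyte-like cells, whose myelin carries CD9, also had a high level, at 665 and 714 CPM. All 9 other tetraspanins listed had ratios below 0 in both libraries (cKO median -0.87), and 3 in flox and 2 in cKO were past the size rule. Cd81, which like Cd9 binds integrins and other surface proteins, stood at 1644 and 1295 CPM in microglia-like and at 74.7 and 46.8 CPM in macrophage-like cells. Cd63, a tetraspanin of late endosomes, stood at 1596 and 2080 CPM against 1297 and 1579 CPM.

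Other genes of the damage-associated programme went both ways. Of 22 listed and measured (medians -0.79 and -0.66), 3 were past the size rule as higher in macrophage-like cells in each library, and 8 as lower in flox and 10 in cKO. Higher were Apoe, the fatty acid carrier Fabp5 (679 and 1005 CPM in microglia-like against 3639 and 4749 CPM in macrophage-like cells) and the chemokine Ccl6. Lower, and so higher in microglia-like cells, were among others the growth factor Csf1 (289 against 12.8 CPM in flox), the lipase Lpl (649 against 92.9 CPM) and the chemokines Ccl3 and Ccl4. Ccl6, Csf1, Lpl, Ccl3 and Ccl4 were named after their values were seen. Ctsb and Cd68, both lysosomal, were under 2-fold in both libraries. All 14 genes of the resting microglia list were past the size rule as lower in macrophage-like cells in both libraries (medians -2.41 and -2.49), and 11 of the 14 are markers by which the classes were named.

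The levels were then ordered over the 11 classes that held 50 or more cells in both libraries. Gpnmb and Lgals3 were highest in macrophage-like cells, Trem2, Spp1, Cst7 and Cd9 in microglia-like cells, Itgax in dendritic cell-like cells and Igf1 in border-associated macrophage-like cells, in both libraries. Tyrobp was highest in neutrophil-like cells, at 3679 and 4412 CPM, in which only 12 and 28 cells reached 2000 UMIs. Lgals1 was also high outside the myeloid classes. Its flox order began with border-associated macrophage-like cells (1358 CPM, 1304 to 1413), astrocyte-like cells (1263 CPM, 1134 to 1401), macrophage-like cells (1144 CPM, 1132 to 1156) and pericyte or smooth muscle cell-like cells (1014 CPM, 924 to 1109). The astrocyte-like interval overlapped those of both its neighbours, and the macrophage-like and pericyte-like intervals did not overlap. In the thinned cells the median number of the 10 genes found per cell was 6 in macrophage-like cells of both libraries, 5 in flox and 6 in cKO microglia-like cells, 3 in dendritic cell-like and 1 in endothelial cell-like cells.

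**Figure D2:**
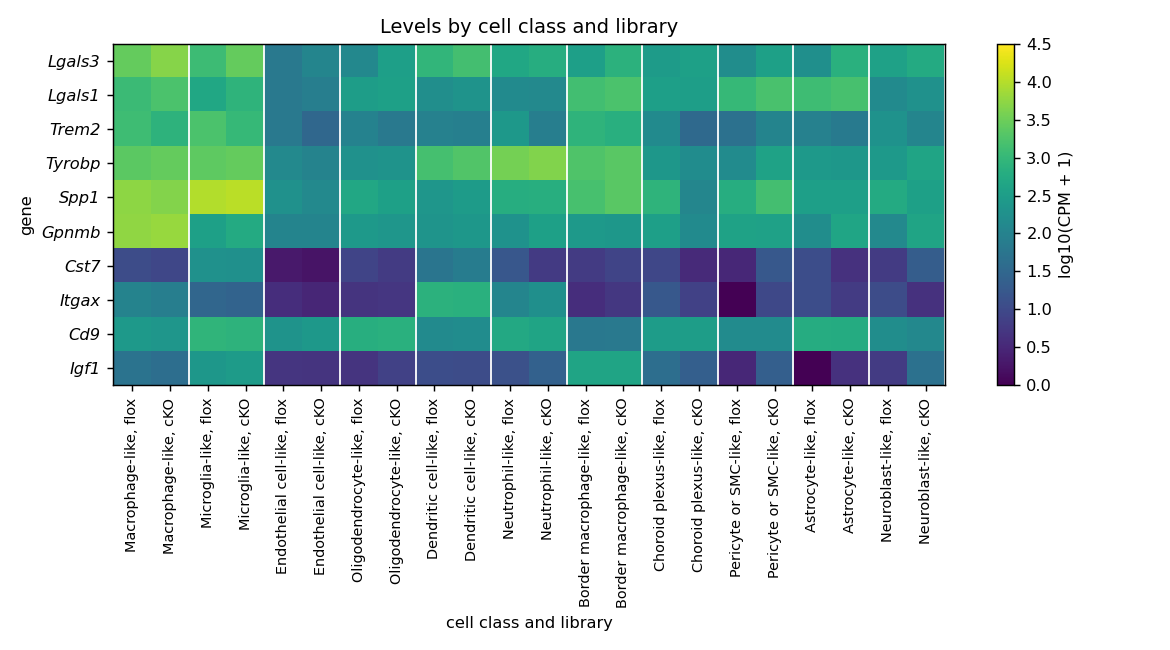
Level of each gene (rows) in the 11 classes of each library (columns, flox and cKO side by side), coloured by log10(CPM + 1), with white lines between classes and SMC for smooth muscle cell. Microglia-like and macrophage-like columns are bright for most genes, Itgax is brightest in dendritic cell-like cells, Igf1 in border-associated macrophage-like cells, and Lgals1 and Cd9 are also bright in non-myeloid classes.

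The genes most like each member over the 22 class sums, by Pearson r of log2(CPM + 10), are given as a description. Points of 1 library share their preparation and depth. Tyrobp was closest to Plek (r = 0.990) and Cd53 (0.987), and Trem2 to Tlr7 (0.975) and C1qb (0.964). Itgax was closest to Plbd1 (0.955) and Napsa (0.947), Spp1 to Ctsb (0.926) and C1qb (0.903), and Cst7 to Siglech (0.911) and Cd72 (0.898). Igf1 was closest to Ccl12 (0.909) and Maf (0.902), Lgals3 to Lat2 (0.905) and Rgs1 (0.904), and Gpnmb to Arg1 (0.886) and Thbs1 (0.851). Lgals1 (Tns3, 0.819, and 4931406C07Rik, 0.791) and Cd9 (Csf1, 0.732, and Fam102a, 0.704) had the least close partners.

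Within microglia-like cells some of the genes differed widely between clusters and others little. Cluster 4, with 743 flox and 287 cKO cells, was led by resting genes such as Siglech and P2ry12, and cluster 2, with 838 and 689 cells, by Cd5l and Lpl. Spp1 stood at 239 and 205 CPM in cluster 4 and at 12952 and 13597 CPM in cluster 2, 54.2-fold (50.7 to 57.9) and 66.4-fold (59.9 to 73.8) apart. Lgals3 stood at 67.8 and 114 CPM in cluster 4 and at 1638 and 3385 CPM in cluster 2. Lgals1 stood at 45.4 and 64.4 CPM against 585 and 957 CPM, and Igf1 at 7.83 and 13.6 CPM against 335 and 348 CPM. Gpnmb was 6.22-fold and 7.56-fold higher in cluster 2. By contrast Trem2 was 1.11-fold and 0.90-fold, Cd9 1.23-fold and 1.12-fold, Tyrobp 1.34-fold and 1.22-fold and Cst7 1.89-fold and 1.55-fold that of cluster 4. Itgax went the other way, at 43.2 and 53.1 CPM in cluster 4 and 28.7 and 26.2 CPM in cluster 2. Igf1 and Cst7 are among the leading genes of cluster 2, and clusters were made from the same cells, so these folds describe the clusters and test nothing.

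The remaining microglia-like clusters lay between these for Spp1 and Lgals3. Cluster 5, led by cell cycle genes (476 and 379 cells), had 10248 and 10032 CPM of Spp1 and 1272 and 2327 CPM of Lgals3. Cluster 21, led by interferon-induced genes, had only 62 and 28 cells. It stood at 5465 and 2850 CPM of Spp1 and 575 and 1422 CPM of Lgals3. In single cells of cluster 4, 75.3% (flox) and 75.1% (cKO) had no Spp1 UMI after thinning, and the highest had 12 and 11, while in cluster 2 the median was 16 and 20 and the highest 128 and 101.

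**Figure D3:**
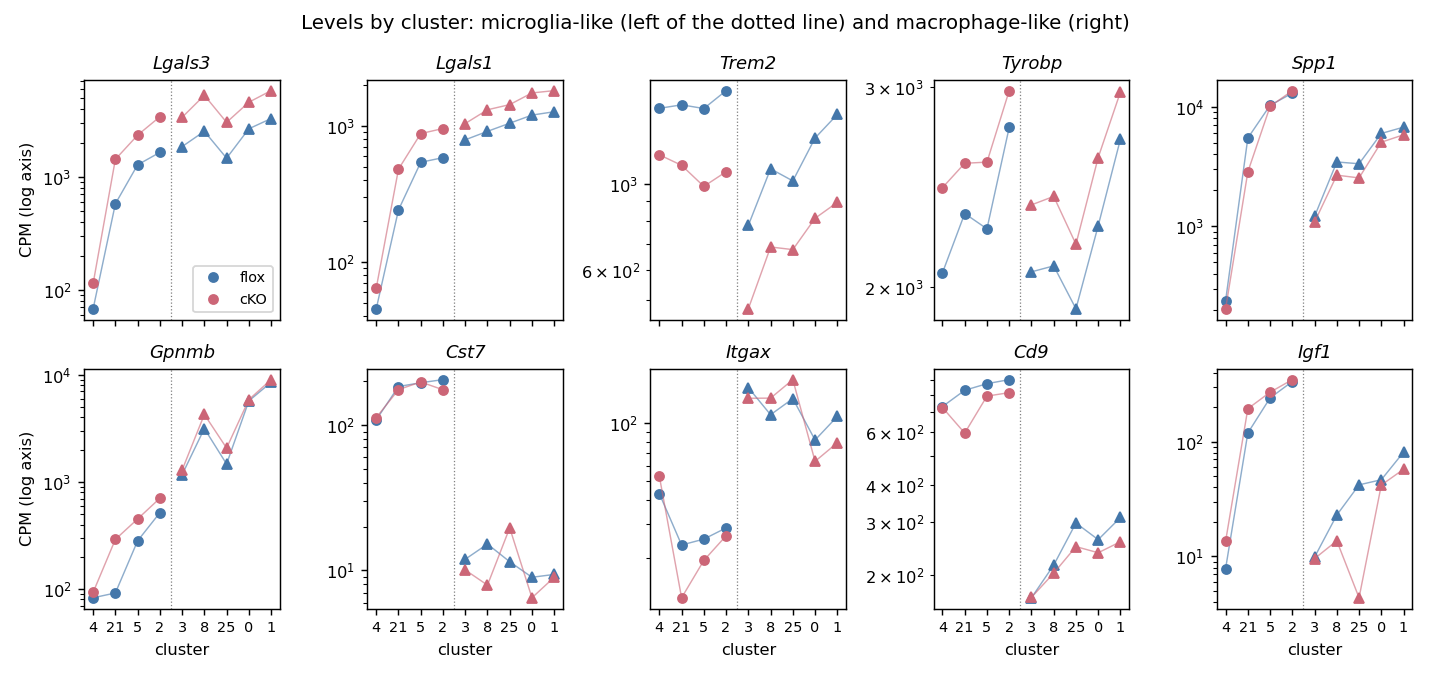
Level of each gene in CPM (log axis, a separate scale in each panel) in 4 microglia-like clusters (circles) and 5 macrophage-like clusters (triangles), flox in blue and cKO in red, joined by lines that only guide the eye. Spp1, Lgals3 and Lgals1 are lowest of all 9 clusters in microglia-like cluster 4, and Igf1 is lowest there among the microglia-like clusters, while Trem2, Tyrobp and Cd9 vary little among microglia-like clusters; cluster 25 has 22 and 29 cells.

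Macrophage-like clusters also differed. Cluster 3 (713 and 642 cells) was led by the monocyte genes Ccr2 and Plac8, and cluster 1 (1020 and 982 cells) by Gpnmb and Fabp4. The markers of cluster 1 placed it only narrowly as infiltrating rather than border-associated, with scores of 0.545 and 0.524. Lyve1 and Cd163, which define the latter, stood at 1.35 CPM or less, and Mrc1, also on that list, at 22.0 and 27.2 CPM. Ccr2 stood at 68.4 and 30.9 CPM, against 1222 and 1074 CPM in cluster 3. The full border-associated marker list summed to 1352 and 1750 CPM in cluster 1, and the infiltrating list to 6459 and 7235 CPM. These sums do not put the lists on one scale. Over all macrophage-like flox cells, Thbs1 alone gave 5306 of the 7849 CPM of the infiltrating list. With the members kept for clustering, a cluster with Fabp4 and Gpnmb among its leading genes (733 and 799 cells) was named border-associated. At resolution 2, the clusters with both genes among the leading ones scored highest as border-associated and stayed unnamed. From cluster 3 to cluster 1, Gpnmb was 7.28-fold and 6.99-fold higher, Igf1 8.22-fold and 6.01-fold, Spp1 5.56-fold and 5.36-fold, and Trem2 1.94-fold and 1.89-fold. Lgals3 differed by 1.77-fold and 1.72-fold, and its lowest value over the 5 macrophage-like clusters was 1456 and 3020 CPM, in cluster 25. Itgax was lower in cluster 1 than in cluster 3, at 108 and 79.1 CPM against 153 and 134 CPM. Cluster 0 (1474 and 1250 cells), led by Il10 and Arg1, had 5703 and 5860 CPM of Gpnmb and 5968 and 5044 CPM of Spp1.

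In thinned microglia-like cells, 37.8% of flox cells held both Lgals3 and Spp1, where 27.8% would if the genes were independent, and 55.6% of cKO cells did, where 47.1% would. The correlation of their thinned log counts over cells was 0.593 and 0.612. Igf1 was found in 36.3% of Lgals3-positive and 8.53% of Lgals3-negative flox cells, and in 38.8% and 10.3% of cKO cells. Lgals3 and Cst7 showed no such link, with Cst7 in 25.2% of Lgals3-positive and 23.8% of Lgals3-negative flox cells. In macrophage-like cells the closest pair was Spp1 and Gpnmb, with a correlation of 0.536 and 0.474. Cells share their library and cluster structure, so these values describe the cells and carry no test.

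Between the libraries, the galectins were higher and Trem2 lower in the library labelled cKO, in both myeloid classes, while Hilpda itself, as given above, was lower there in macrophage-like and higher in microglia-like cells. In microglia-like cells Lgals3 was 2.20-fold higher in cKO (log2 ratio 1.14, 1.11 to 1.16) and Lgals1 1.79-fold (0.84, 0.81 to 0.88), while Trem2 had 0.64 of the flox level (-0.65, -0.67 to -0.62). In macrophage-like cells Lgals3 was 1.79-fold higher (0.84, 0.83 to 0.85), Lgals1 1.45-fold (0.54, 0.52 to 0.56), and Trem2 had 0.62 of the flox level (-0.69, -0.72 to -0.67). Of the 10 genes, Lgals3 in microglia-like cells was the only one past the size rule. There, 0.543% of 12880 features were past it, 4 higher and 66 lower in cKO (0.0311% and 0.512%). In macrophage-like cells 0 of the 10 genes were, and 0.467% of 12856 features, 1 higher and 59 lower (0.00778% and 0.459%). The median log2 ratio of all features was -0.04 in microglia-like and 0.01 in macrophage-like cells. These contrasts use the same 4 sums as the class contrasts above.

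The microglia-like Lgals3 ratio also carries the mix of clusters. Cluster 4, with little Lgals3, held 35.1% of flox and 20.8% of cKO microglia-like cells. Inside the 4 microglia-like clusters the ratio ran from 0.74 (cluster 4) to 1.31 (cluster 21), and every interval was above 0. The mean over the 3 clusters with at least 50 cells in each library was 0.89, under the 2-fold line, so the call was lost there. In the 5 macrophage-like clusters the Lgals3 ratio ran from 0.78 to 1.06. Lgals1 was above 0 and Trem2 below 0 in all 9 of these clusters, with no interval that reached 0. Tyrobp was slightly higher in cKO, at 0.18 in microglia-like and 0.19 in macrophage-like cells, and was above 0 in all 9.

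Lgals3 was higher in the library labelled cKO outside the myeloid classes too. The ratio and its interval were above 0 in 11 of 11 classes, from 0.29 in choroid plexus epithelial cell-like to 2.01 in astrocyte-like cells. The ratio was 1.43 in oligodendrocyte-like, 1.17 in border-associated macrophage-like and 1.22 in pericyte or smooth muscle cell-like cells. The share of all features past the size rule was not worked out in these classes, so no call is read there. The levels were low in several of these, for example 128 and 343 CPM in oligodendrocyte-like cells and 64.4 CPM in endothelial cell-like flox cells, and the astrocyte-like ratio rests on 49 flox and 422 cKO UMIs. Lgals3 was also higher in cKO in the macrophage-like cells that hold most of its UMIs, and the part of free RNA in these values was not tested. Lgals1 was above 0 in 8 of 11 classes, with intervals that included 0 in the other 3. Trem2 was below 0 with its interval in 8 classes. Pericyte-like cells were the exception, with 22 flox and 76 cKO UMIs (1.16, 0.46 to 1.91), and Tyrobp was higher there too (1.42).

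**Figure D4:**
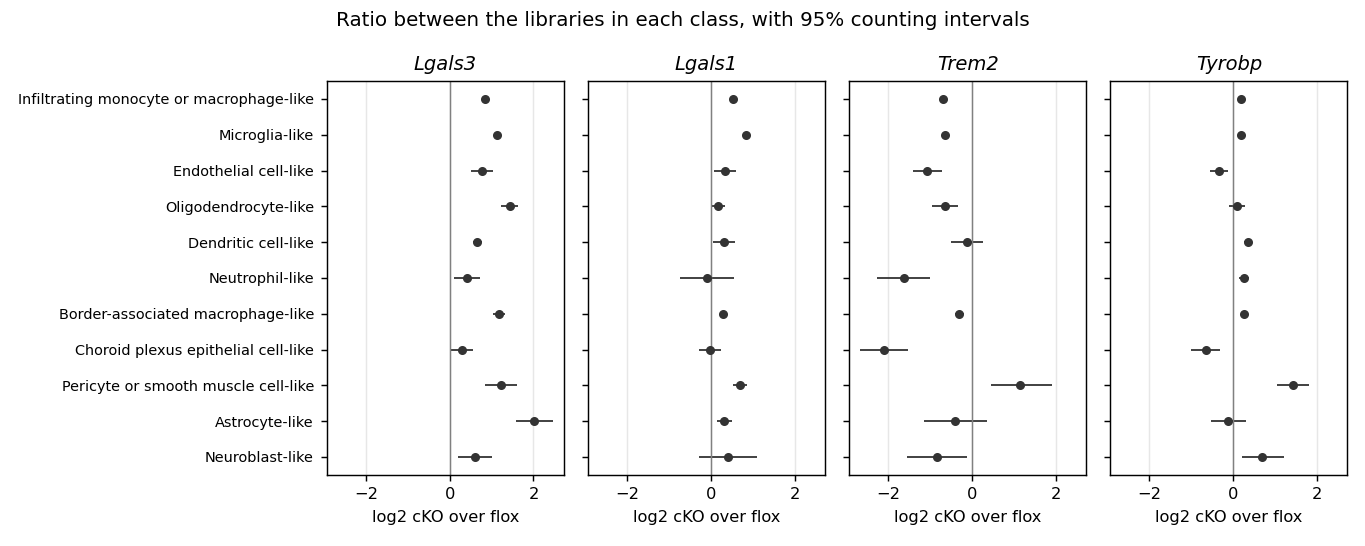
Log2 ratio of the library labelled cKO over that labelled flox (horizontal axis) for Lgals3, Lgals1, Trem2 and Tyrobp in each of the 11 classes, with 95% counting intervals and a vertical line at equal levels. Lgals3 lies to the right of 0 in all 11 classes, and Trem2 to the left in all but pericyte or smooth muscle cell-like cells.

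The ratio of all features moved with the GC content of the last 500 nt of the transcript, the part that a 3′ library reads. In the bin of highest 3′ GC of 10 bins, the median ratio was -0.53 in microglia-like and -0.40 in macrophage-like cells, while the other 9 bins lay between -0.10 and 0.08. Trem2, at 55.2% GC, is in that highest bin in both classes, and so is Lgals1, at 54.8%. After the median of its bin was subtracted, the Trem2 ratio was -0.12 in microglia-like and -0.29 in macrophage-like cells, and the Lgals1 ratio was 1.37 and 0.94. In microglia-like cells Lgals1 lies on the lower edge of that bin, which runs from 54.8% to 77.6%. The bin below had a median of -0.03 there, so the Lgals1 value of 1.37 depends on the edge. Trem2 lies close to the lower edge in both classes. In macrophage-like cells that edge is at 54.6%, and the bin below had a median of -0.001. The subtracted Trem2 ratios of -0.12 and -0.29 thus also depend on where the edge falls. Lgals3, at 47.2% GC, kept a ratio past the size rule in microglia-like cells. The part of GC content in the Trem2 difference was not tested further.

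The other genes differed less between the libraries labelled flox and cKO. In microglia-like cells Gpnmb was at 0.64 (0.60 to 0.69), but at -0.01 when cells were gated one by one on markers. Spp1 was at 0.18 in microglia-like and -0.19 in macrophage-like cells, and Igf1 at 0.25 and -0.27. The microglia-like Spp1 ratio inside clusters was 0.07 in cluster 2, -0.22 in cluster 4, -0.03 in cluster 5 and -0.94 in cluster 21, and the mean over clusters was -0.06. Cd9 (-0.11 and -0.16), Itgax (-0.20 and -0.30) and Cst7 (-0.06 and -0.31) were at or below 0 in both classes, and the Cst7 interval in microglia-like cells included 0. Of all listed pathway genes, Ctsd alone was past the size rule, lower in cKO in both classes at -1.58 and -1.61. It was named after its values were seen.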

How the data were processed

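One flox and 1 cKO library of infarcted brain were analysed. The deposited tables hold UMI counts per gene and cell barcode, not normalized, for which the submitters' processing notes name CASAVA 1.8, STARsolo, Seurat and the mm10 build, without roles or order. The tables held 8593 flox barcodes (67864602 UMIs) and 7382 cKO barcodes (70665440 UMIs), none under 500 UMIs. Cells with at least 500 UMIs, 200 genes and at most 25% mitochondrial UMIs were kept, which removed 318 and 256, and Scrublet (in scanpy 1.11.5, expected rate 6%) removed 214 and 143 predicted doublets (2.59% and 2.01%).

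The cells were clustered (2000 variable genes without the 10 members, 30 components, 20 neighbours, Leiden resolution 1; leidenalg 0.10.2, Python 3.11.15), and clusters were named from a fixed list of markers, with thresholds revised after the clusters were seen. Unnamed cells made up 2.47% of flox and 2.81% of cKO cells. UMIs were summed per class and library. CPM have exact Poisson intervals, ratios exact conditional binomial intervals and shares Clopper-Pearson intervals (scipy 1.17.1), all at 95% and for counting error only. A feature was measured in a contrast with at least 10 UMIs in both sums together. Shares used cells thinned to 2000 UMIs. TMM factors came from edgeR 4.0.16, used for scaling only, with no test. Of 31253 feature IDs, 31184 were in GENCODE vM21. Only the size rule and the ratio interval were tested on simulated data, as Poisson counts drawn from the class sums. The intervals assume such counts, so this says nothing on variation between libraries. Clustering, naming, doublet calls and thinning were not simulated.

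The members and gene lists were chosen with earlier results of these data known. From each list at most 4 genes, those with the most UMIs in both classes, are named, and others are marked where they appear. Alternatives covered cell typing, clustering, doublets, filters, scaling, depth, GC content and cell weights, and leaving out cluster 1, cluster 4 or shared barcodes was added after seeing the data.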

Additional observations from a re-analysis of the deposited data

Results flagged for a closer look

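Spp1 and Igf1 had ratios of the library labelled cKO over that labelled flox in opposite directions in the myeloid classes. For Spp1 the log2 ratio was 0.18 in microglia-like and -0.19 in macrophage-like cells, a difference of -0.37 (-0.38 to -0.35). For Igf1 it was 0.25 and -0.27, a difference of -0.52 (-0.63 to -0.40). With 1 library per group neither difference was tested. Hilpda, the targeted gene, also went in opposite directions, at 1.16 in microglia-like and -0.82 in macrophage-like cells. The signs were not kept under every alternative: the microglia-like Spp1 ratio was -0.06 as a mean over clusters, and the macrophage-like Igf1 ratio was 0.08 at resolution 2.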

How the results depend on the processing

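No paired analysis was possible because each group has 1 library and the labels give no replicate numbers. Of 40 ratios of the 10 genes, 34 kept their sign under all 13 alternatives of the class contrast or 14 of the library contrast. The 6 others were Tyrobp between the classes in both libraries (0.09 with TMM scaling in each), Spp1 (-0.06, mean over clusters), Gpnmb (-0.01, marker gate) and Cst7 (0.16, thinned cells) between libraries in microglia-like cells, and Igf1 in macrophage-like cells (0.08, resolution 2). All 13 ratios past the size rule kept their sign and 10 kept their call. The others were Lgals3 between flox classes (0.96 with the members among the clustering genes, 0.85 at resolution 2, 0.90 without cluster 4), Itgax between flox classes (under 100 CPM with thinned cells or without cluster 1) and Lgals3 between libraries in microglia-like cells (0.89, mean over clusters).

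Of the counts past the size rule, 191 values stayed within 1.5 times the main count and 25 did not. Members higher in macrophage-like cKO cells numbered 2 with the marker gate, at resolution 2 and with no minimum CPM, and 3 with TMM scaling, thinned cells and equal weight per cell. Members higher in cKO microglia-like cells numbered 2 with equal weight or GC subtraction and 0 as a mean over clusters. With GC subtraction the added member was Lgals1, which lies on the edge of its GC bin. Features higher in cKO microglia-like cells numbered 1 with the gate, 2 with at most 10% mitochondrial UMIs or as a mean over clusters, 7 with TMM, 10 with GC subtraction and 67 with no minimum CPM, where 642 were lower. In macrophage-like cells 2 were higher with TMM or as a mean over clusters, 5 with GC subtraction and 65 with no minimum CPM, where 579 were lower. With no minimum CPM, 855 features were higher and 1751 lower between the flox classes, and 825 and 1560 between the cKO classes. The cause of these changes was not tested. The marker gate placed 2151 of 6699 macrophage-like cells as border-associated. Thinned shares kept the order of the groups in 37 of 40 comparisons at 1000 UMIs, and 35 had the order of the CPM.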

Other observations

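Many thinned cells held several of the 10 genes. At least 7 of the 10 were in 31.4% of flox and 27.7% of cKO macrophage-like cells, and in 19.7% and 28.5% of microglia-like cells. The share expected if the genes were independent was not worked out, so no link is read from these shares. Lgals3, Lgals1, Trem2, Tyrobp, Spp1 and Gpnmb were each in 81.1% or more of the thinned flox macrophage-like cells. Trem2 and Tyrobp, receptor and adaptor, had a correlation of only 0.144 and 0.074 over microglia-like cells, in which nearly every cell had a Tyrobp UMI. Lgals3 and Lgals1 had 0.433 and 0.485 there. These values describe the cells of 1 library each and carry no test.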
